A study of Felis catus with 25 samples.

Results

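DHCR7, TM7SF2 and MSMO1 encode 3 enzymes of the late stretch of cholesterol synthesis. They were taken by their symbols from the 13949 gene symbols counted in cultured corneal fibroblasts of the domestic cat, and all 3 passed the filter on low counts, as did 10699 genes in all. The fibroblasts came from the cornea and were grown on collagen-coated dishes. The 25 libraries of polyadenylated RNA formed 5 groups of 5. FB held untreated cells harvested at day 0 after they had become quiescent. TGFb held cells kept for 2 days with 1 ng/ml of transforming growth factor beta 1 (TGFb1), which turns fibroblasts into contractile myofibroblasts. In the other 3 groups TGFb1 was withdrawn at day 2 and a drug was present for 3 days, until day 5. Troglitazone at 7.5 uM, which activates the nuclear receptor PPAR-gamma, defined Trog. TrogGW had 7.5 uM troglitazone together with 10 uM GW9662, an antagonist of that receptor. UK-5099 at 30 uM, which blocks entry of pyruvate into mitochondria, defined UK. All day 5 cells had therefore been exposed to TGFb1, and no day 5 group without a drug and no day 2 group without TGFb1 was analysed here. The effects of drug, of elapsed time and of TGFb1 withdrawal cannot be told apart in comparisons of a day 5 group with TGFb or FB. In TGFb against FB, TGFb1 and the 2 days that passed cannot be told apart. The replicates of a group are called independent, but whether they were separate cultures or separate animals was not given in the sources used here, and the p-values describe no more than the variation among these libraries.

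Cells make cholesterol from acetyl-CoA by way of mevalonate, squalene and lanosterol, and a chain of endoplasmic reticulum enzymes then trims and reduces lanosterol to cholesterol. Transcription of the pathway follows the sterol content of the endoplasmic reticulum: when it is low, SCAP carries the SREBP transcription factors to the Golgi for cleavage, and the INSIG proteins hold them back when sterols are plentiful. Cultured fibroblasts are the classical cells in which this feedback was worked out. TM7SF2 is a sterol reductase that acts just after CYP51A1 has removed a methyl group from lanosterol. MSMO1, methylsterol monooxygenase, starts the removal of the methyl groups at carbon 4. DHCR7 reduces 7-dehydrocholesterol to cholesterol, and its substrate is also the precursor of vitamin D.

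Libraries held 14.8 to 25.2 M counts, and levels are given as CPM, counts relative to the library total after TMM scaling. UK replicate 5 stood apart: it had the lowest total and correlated with the other libraries of its group at r = 0.887 to 0.899, against at least 0.994 for all other pairs within a group. Fold changes and ratios of the 3 enzymes printed for the UK group are therefore also given without it where they moved by 0.1 or more on the log2 scale. Among stromal markers the summed level was 66063 to 80475 CPM in FB, 92241 to 110960 in TGFb and 90613 to 129979 in UK, but 2994 to 4761 in Trog and 1256 to 2914 in TrogGW, for 10 of 12 listed genes. Most of that sum was COL1A1 and COL1A2, and 2 other stromal genes followed other patterns. DCN, which encodes decorin, was at 368 ± 14.9 CPM in FB, 583 ± 34.4 in TGFb, 579 ± 53.1 in Trog, 218 ± 33.1 in TrogGW and 1151 ± 136 in UK (SD, n = 5). LUM, which encodes lumican, was at 189 ± 9.02, 859 ± 69.3, 243 ± 54.1, 64.8 ± 30.9 and 3669 ± 1706 CPM in the same order. The epithelial list, with 5 of 9 genes in the files, summed to 7.91 to 10.6 CPM in FB, 3.90 to 5.88 in TGFb, 1.84 to 3.04 in Trog, 2.91 to 5.37 in TrogGW and 0.637 to 3.75 in UK, and its defining markers KRT3 and KRT12 were at 0 in every group. The immune list, with 6 of 7, summed to 10.4 to 13.2 CPM in FB, 19.7 to 28.0 in TGFb, 25.8 to 33.5 in Trog, 20.2 to 23.8 in TrogGW and 20.5 to 32.7 in UK, with the leukocyte marker PTPRC at 0 in every group. The adipocyte list, with 5 of 5 genes in the files, summed to 33.9 to 47.3 CPM in Trog, 5.31 to 8.13 in TrogGW, 0.605 to 1.25 in FB, 0.672 to 1.40 in TGFb and 1.08 to 6.95 in UK. In Trog it was nearly all FABP4, at 38.2 ± 5.60 CPM (SD, n = 5), and ADIPOQ, the defining adipocyte marker, was at 0 there. The part of these shifts in the results for the 3 enzymes was not tested.

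All 3 enzymes followed the same order of groups, highest in TGFb, then UK, FB, Trog and TrogGW. In bulk RNA, fewer cells expressing a gene and less of its RNA per cell cannot be told apart. DHCR7, the reductase at the end of the pathway, stood at 34.2, 39.9, 45.7, 40.2 and 46.4 CPM in the FB libraries and at 141, 119, 124, 121 and 110 CPM in TGFb. In Trog it stood at 17.1, 18.1, 17.0, 16.9 and 12.8 CPM, and in TrogGW at 9.12, 10.9, 9.61, 8.30 and 10.0 CPM. In UK it stood at 67.1, 61.1, 69.8, 68.0 and 57.9 CPM. No group overlapped another, and the lowest group, TrogGW, still rested on 237 to 295 counts per library. Group means were 41.3 ± 4.98 CPM in FB, 123 ± 11.6 in TGFb, 16.4 ± 2.05 in Trog, 9.59 ± 0.980 in TrogGW and 64.8 ± 5.05 in UK (SD, n = 5).

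TM7SF2, the sterol reductase, stood at 60.0, 55.3, 68.5, 57.4 and 64.6 CPM in FB and at 423, 360, 373, 396 and 365 CPM in TGFb. In Trog it stood at 20.4, 32.3, 29.7, 22.9 and 21.0 CPM and in TrogGW at 13.1, 12.3, 12.8, 13.7 and 12.4 CPM. In UK it stood at 204, 165, 194, 186 and 357 CPM. UK replicate 5 thus lay just under the lowest TGFb library, while the other 4 UK libraries were far from it, and no groups overlapped. Means were 61.2 ± 5.39, 383 ± 26.2, 25.3 ± 5.40, 12.9 ± 0.581 and 221 ± 77.2 CPM in FB, TGFb, Trog, TrogGW and UK (SD, n = 5). Without UK replicate 5 the UK mean was 187 ± 16.5 CPM. In the RefSeq gene table of the cat, TM7SF2 overlaps a long noncoding RNA, LOC109492195. Because the strand setting of the counting is not given, reads of the overlapping pair cannot be told apart.

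MSMO1, the methylsterol oxidase, stood at 151, 184, 171, 172 and 168 CPM in FB and at 437, 370, 386, 389 and 375 CPM in TGFb. In Trog it stood at 60.8, 71.8, 69.6, 72.0 and 64.7 CPM and in TrogGW at 36.0, 31.4, 24.5, 23.5 and 28.1 CPM. In UK it stood at 252, 228, 252, 204 and 324 CPM. Again no groups overlapped, and UK replicate 5 was the highest of its group. Means were 169 ± 12.0, 391 ± 26.7, 67.8 ± 4.86, 28.7 ± 5.14 and 252 ± 44.8 CPM in the same order of groups (SD, n = 5), and 234 ± 22.6 CPM in UK without replicate 5. Levels of different enzymes are not compared with each other, because counts were not divided by transcript length.

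**Figure D1:**
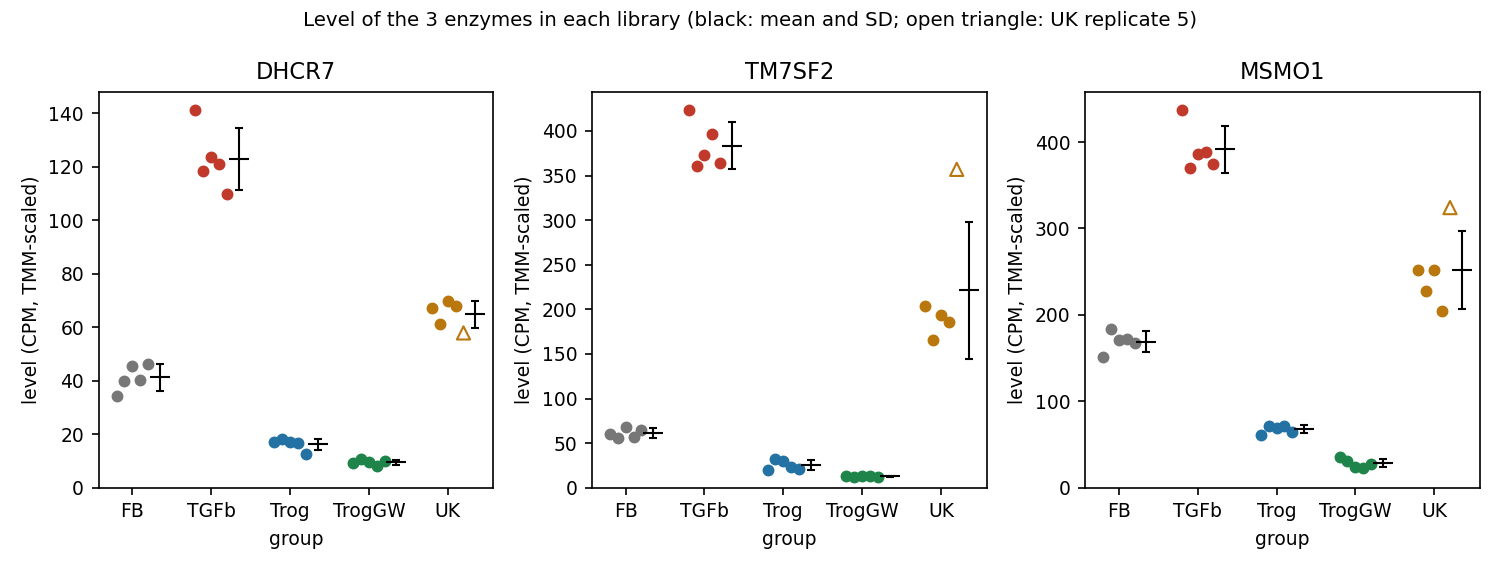
Level of DHCR7, TM7SF2 and MSMO1 in each of the 25 libraries, in CPM after TMM scaling on a linear axis from 0, by group. Points are libraries, black bars are the mean and SD of 5, and the open triangle is UK replicate 5. In all 3 panels TGFb is highest and TrogGW lowest, and no groups overlap.

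The comparison of TGFb with FB sets quiescent fibroblasts at day 0 against cells after 2 days with TGFb1. All 3 enzymes rose. DHCR7 rose 2.98-fold, by 1.57 ± 0.104 on the log2 scale (SE, edgeR quasi-likelihood test over all genes, Benjamini-Hochberg adjusted p = 1.99e-11). TM7SF2 rose 6.27-fold, by 2.65 ± 0.167 (adjusted p = 8.63e-12), and MSMO1 rose 2.31-fold, by 1.21 ± 0.115 (adjusted p = 8.59e-09). As background, 18% of the 10699 genes tested rose and 20.2% fell at the same threshold, an adjusted p under 0.05. These shares moved with UK replicate 5, which enters the shared estimate of spread: without it, 3425 of 10798 genes rose and 3699 fell. With library totals alone as scaling, 13.9% of the called genes were higher, against 47.2% with TMM scaling. The 3 enzymes rose under both.

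The rise was shared along the pathway. Of the 15 other enzymes or partners of cholesterol synthesis that were tested, 12 rose and 0 fell, and their median log2 change was 0.84, against -0.02 over all genes tested. The number that fell was also 0 at an unadjusted edgeR p under 0.05 and by DESeq2 and limma. HMGCS1, which makes the precursor of mevalonate, rose by 1.85 ± 0.127 on the log2 scale (adjusted p = 3.64e-11). HSD17B7, a ketosteroid reductase that acts with MSMO1 in removing the methyl groups, rose by 1.07 ± 0.109 (adjusted p = 2.72e-08). Among the 18 synthesis genes including the 3 enzymes, TM7SF2 had the largest rise, DHCR7 the third largest and MSMO1 the sixth. Of 7 regulators of SREBP, 4 rose and 1 fell, beside 18% and 20.2% of all genes. INSIG1, itself a target of the feedback, rose by 2.36 ± 0.235, and SCAP fell by 0.37 ± 0.144 (adjusted p = 0.0442). SCAP was not called by DESeq2, with another scaling method (RLE) or with a replicate block. SREBF2, which encodes the SREBP that governs cholesterol genes, had a log2 change of 0.31 ± 0.182 (adjusted p = 0.19, edgeR). Without UK replicate 5, which enters this fit through the shared estimate of spread, its adjusted p was 0.00279. Of 7 genes of uptake and transport, 2 rose, among them NPC1, which moves cholesterol out of lysosomes, by 0.68 ± 0.164 (adjusted p = 0.00181). With library totals alone the split of the 18 synthesis genes was 12 higher and 1 lower, in place of 15 and 0.

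**Figure D2:**
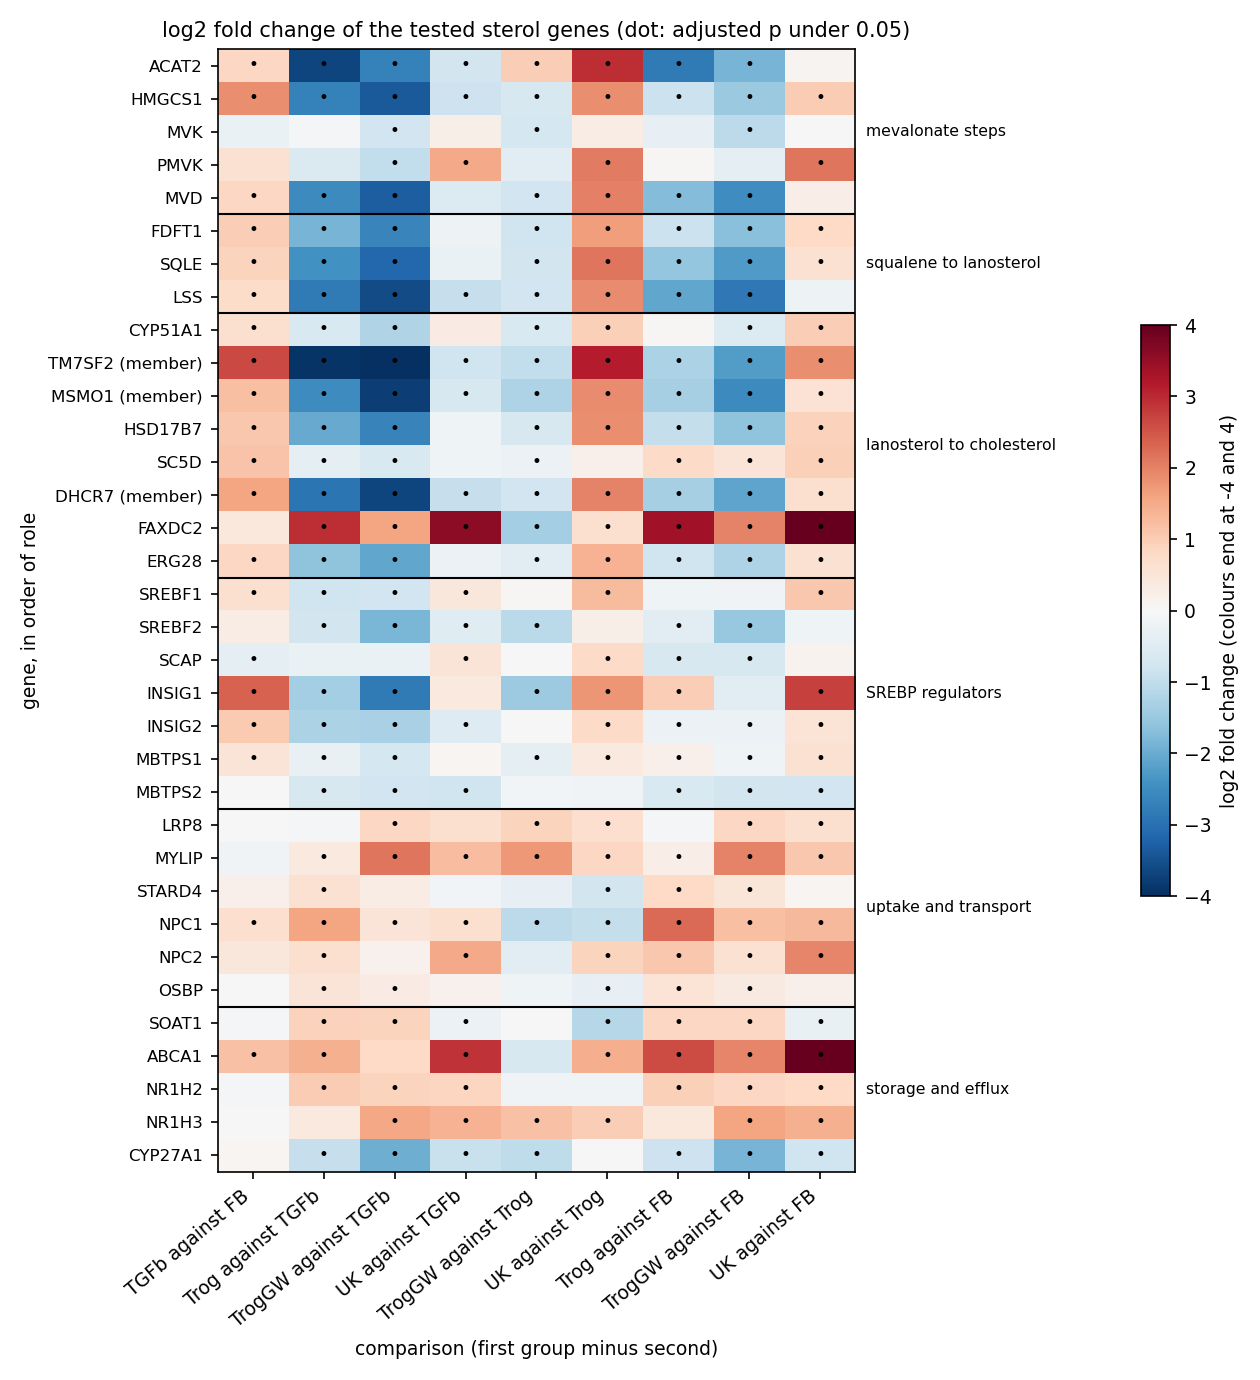
The log2 fold change of 34 tested sterol genes (rows, grouped by role) in 9 of the 10 comparisons (columns, first group minus second), from edgeR with TMM scaling. A dot marks an adjusted p under 0.05, colours end at -4 and 4, and values beyond them, such as -4.90 for TM7SF2 in TrogGW against TGFb, take the end colour. The rows of the synthesis steps, from ACAT2 to ERG28, are mostly red in the column for TGFb against FB and blue in the columns for Trog and TrogGW against TGFb.

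Trog and TrogGW were compared with TGFb to ask what happened to the myofibroblasts over the 3 days with drug. These comparisons share the 5 TGFb libraries. All 3 enzymes fell in both. In Trog, DHCR7 fell 7.51-fold, by 2.91 ± 0.110 on the log2 scale (edgeR adjusted p = 2.00e-16). TM7SF2 fell 15.2-fold, by 3.92 ± 0.177 (adjusted p = 4.73e-15), and MSMO1 fell 5.77-fold, by 2.53 ± 0.120 (adjusted p = 1.12e-14). Each enzyme ended below its level in untreated cells, with log2 differences of Trog from FB of -1.34 ± 0.104 for DHCR7, -1.27 ± 0.161 for TM7SF2 and -1.32 ± 0.115 for MSMO1. The edgeR adjusted p-values of these were 9.71e-11, 2.86e-07 and 6.97e-10. Over all genes, 32.9% rose and 29.7% fell from TGFb to Trog, while 32.4% were higher and 31.5% lower in Trog than in FB. With a library left out, the genes called in both directions together reached 8742 and 8790 in these comparisons, in place of 6699 and 6838. With library totals alone, 83.2% of the called genes were higher in Trog than in TGFb, against 52.5%, and 68.2% were higher than in FB, against 50.7%.

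With GW9662 added, the levels were lower still. From TGFb to TrogGW, DHCR7 fell 12.8-fold, by 3.68 ± 0.114 on the log2 scale (edgeR adjusted p = 6.69e-18). TM7SF2 fell 29.8-fold, by 4.90 ± 0.186 (adjusted p = 1.26e-16), and MSMO1 fell 13.6-fold, by 3.77 ± 0.127 (adjusted p = 1.95e-17). Over all genes, 38.1% rose and 31.3% fell in this comparison, and 84.9% of the called genes were higher with library totals alone, against 54.9%. Against FB the log2 differences of TrogGW were -2.11 ± 0.107, -2.25 ± 0.166 and -2.56 ± 0.120 for DHCR7, TM7SF2 and MSMO1, with edgeR adjusted p-values of 3.23e-14, 2.75e-11 and 7.68e-15. There 36.2% of all genes were higher and 33.6% lower, and the share of called genes that were higher was 73.9% with library totals alone, against 51.8%. With a library left out, the genes called in TrogGW reached 9279 against TGFb and 9268 against FB, in place of 7421 and 7461.

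The direct comparison of TrogGW with Trog, in which cells differed by GW9662 at the same time point and troglitazone dose, tests the antagonist. All 3 enzymes were lower with GW9662 than with troglitazone alone. DHCR7 fell 1.71-fold, by 0.77 ± 0.105 on the log2 scale (edgeR adjusted p = 2.03e-06). TM7SF2 fell 1.96-fold, by 0.97 ± 0.162 (adjusted p = 2.87e-05), and MSMO1 fell 2.36-fold, by 1.24 ± 0.116 (adjusted p = 7.07e-09). As background, 22.8% of all genes rose and 20.4% fell (2438 and 2182 of 10699 genes, and 3911 and 3824 of 10798 without UK replicate 5), and 69.9% of the called genes were higher with library totals alone, against 52.8%. In the same libraries the adipocyte gene FABP4, a textbook target of PPAR-gamma, was at 38.2 ± 5.60 CPM in Trog and 4.82 ± 1.09 CPM in TrogGW (SD, n = 5).

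Most other synthesis genes fell alongside. From TGFb to Trog, 12 of the 15 others fell and 1 rose, with a median log2 change of -2.03, against 0.04 over all genes. HMGCS1 fell by 2.69 ± 0.131, LSS, which closes the rings to form lanosterol, by 2.81 ± 0.247, and ACAT2, the thiolase that joins acetyl-CoA units, by 3.68 ± 0.243 on the log2 scale. The gene that rose was FAXDC2, a member of the fatty acid hydroxylase family to which MSMO1 also belongs, at 2.08 ± 0.447 CPM in TGFb and 16.0 ± 2.53 in Trog (SD, n = 5). From TGFb to TrogGW, 14 of the 15 fell and FAXDC2 rose, with a median of -2.64. Between Trog and TrogGW, 13 of the 15 fell and ACAT2 rose, with a median of -0.65, against 0.01 over all genes. HSD17B7 fell by 0.65 ± 0.113 and SQLE, the squalene epoxidase, fell by 0.74 ± 0.147 on the log2 scale in that comparison. TM7SF2 had the largest fall of the 18 synthesis genes from TGFb to Trog and to TrogGW, and MSMO1 had the second largest from Trog to TrogGW, after FAXDC2.

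The split of the 18 synthesis genes with library totals alone was 3 higher and 13 lower in Trog against TGFb, in place of 1 and 15. It was 2 higher and 13 lower in TrogGW against TGFb, in place of 1 and 17, and 1 higher and 13 lower in TrogGW against Trog, in place of 1 and 16. Against FB, 2 of the 15 others were higher and 10 lower in Trog, and 2 were higher and 12 lower in TrogGW. The genes higher than in FB in both were FAXDC2 and SC5D, the desaturase that makes 7-dehydrocholesterol, the substrate of DHCR7. Mean SC5D levels (SD, n = 5) were 38.2 ± 3.01 CPM in FB, 84.7 ± 4.84 in TGFb, 65.3 ± 3.79 in Trog and 55.1 ± 9.01 in TrogGW. Like DHCR7, SC5D rose from FB to TGFb, by 1.15 ± 0.0895 on the log2 scale. From TGFb both genes then fell, with log2 changes for SC5D of -0.37 ± 0.0882 to Trog and -0.62 ± 0.0885 to TrogGW. Against FB, however, SC5D stayed higher while DHCR7 was lower, so the enzymes on either side of 7-dehydrocholesterol differed in direction in those comparisons.

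With TMM scaling the regulators mostly fell from TGFb to Trog and to TrogGW, while the uptake genes were mixed. Of 7 regulators of SREBP, 6 fell from TGFb to Trog and 6 to TrogGW, and SCAP was the 1 not called, with a log2 change of -0.26 in each. Over all genes, 29.7% fell to Trog and 31.3% to TrogGW. With library totals alone, 16 of all 37 sterol genes fell to Trog, 13 of them synthesis genes, in place of 23 and 15. To TrogGW 18 fell, 13 of them synthesis genes, in place of 25 and 17. Under that scaling fewer than 6 regulators therefore fell in each comparison. INSIG1 fell by 1.37 ± 0.228 to Trog and fell by 2.82 ± 0.240 to TrogGW on the log2 scale. SREBF2 fell by 1.09 ± 0.184 between Trog and TrogGW (edgeR adjusted p = 3.38e-05), when 3 of 7 regulators and 20.4% of all genes fell and 4 regulators were not called. Of the 7 genes of uptake and transport, 5 rose and 1 fell from TGFb to Trog, beside 32.9% and 29.7% of all genes. The rises were led by NPC1, at 1.57 ± 0.167. Of the 5 tested genes of storage and efflux, 3 rose and 1 fell in that comparison, in which 32.9% of all genes rose and 29.7% fell. SOAT1, which esterifies cholesterol, rose by 0.92 ± 0.0843, and CYP27A1, a sterol hydroxylase, fell by 0.92 ± 0.124 on the log2 scale.

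UK was compared with TGFb for the cells kept with UK-5099. All 3 enzymes fell, by less than in Trog. DHCR7 fell 1.90-fold, by 0.92 ± 0.102 on the log2 scale (edgeR adjusted p = 6.87e-08). TM7SF2 fell 1.73-fold, by 0.79 ± 0.158 (adjusted p = 0.000188), and by 1.03 ± 0.0912 without UK replicate 5. MSMO1 fell 1.55-fold, by 0.64 ± 0.114 (adjusted p = 5.71e-05), and by 0.74 ± 0.0869 without that library. As background, 28% of all genes rose and 22.5% fell. With library totals alone 74.2% of called genes were higher, against 55.4%, and the fall of MSMO1 was 0.42 in place of 0.64. The 3 enzymes stayed above untreated cells: UK exceeded FB by 0.65 ± 0.102 for DHCR7, 1.85 ± 0.162 for TM7SF2 and 0.58 ± 0.114 for MSMO1 on the log2 scale. For TM7SF2 and MSMO1 the differences were 1.62 ± 0.0922 and 0.47 ± 0.0859 without UK replicate 5. With all libraries the edgeR adjusted p-values were 8.48e-06, 8.50e-10 and 0.000143 for DHCR7, TM7SF2 and MSMO1. Against FB, 30% of all genes were higher and 26.5% lower in UK, and 41.9% of called genes were higher with library totals alone, against 53.1%.

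The day 5 groups were also set against each other, at different doses of different drugs. UK exceeded Trog by 1.99 ± 0.106 on the log2 scale for DHCR7, by 3.13 ± 0.171 for TM7SF2 and by 1.89 ± 0.117 for MSMO1. In linear terms these were 3.96-fold, 8.74-fold and 3.72-fold, with edgeR adjusted p-values of 1.56e-13, 2.38e-13 and 2.06e-12. Over all genes 32.9% were higher and 28.2% lower, and 25.1% of called genes were higher with library totals alone, against 53.8%. UK exceeded TrogGW by 2.76 ± 0.110, 4.10 ± 0.179 and 3.13 ± 0.123 in the same order of enzymes, with edgeR adjusted p-values of 4.77e-16, 2.13e-15 and 4.05e-16. Without UK replicate 5, TM7SF2 exceeded Trog by 2.89 ± 0.0968 and TrogGW by 3.87 ± 0.102, and MSMO1 exceeded them by 1.79 ± 0.0878 and 3.03 ± 0.0923. In UK against TrogGW 32.9% of all genes were higher and 35.1% lower, and the share of called genes that were higher was 20.4% with library totals alone, against 48.4%.

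For UK against TGFb the number of other synthesis genes called depended on UK replicate 5. Of the 15 other synthesis genes, 5 fell, 2 rose and 8 were not called, with a median log2 change of -0.22, against 0.09 over all genes. Over all genes, 22.5% fell and 28% rose. Among those that fell were HMGCS1, LSS and ACAT2, and HMGCS1 fell by 0.82 ± 0.123 on the log2 scale (adjusted p = 5.93e-06). Those that rose were FAXDC2, by 3.58 ± 0.174, and PMVK, a kinase of the mevalonate stretch, by 1.52 ± 0.390. PMVK was at 88.4 ± 102 CPM in UK (SD, n = 5), with 271 CPM in replicate 5, and at 42.8 ± 5.38 without that library (n = 4), against 30.6 ± 2.63 in TGFb (n = 5). Without UK replicate 5, 11 of all 18 synthesis genes fell and 2 rose, in place of 8 and 2, and with library totals alone 8 fell and 4 rose. Against FB, 11 of the 15 others were higher in UK and 0 lower, with a median of 0.74, against 0.08 over all genes. In UK against Trog 13 of the 15 were higher and 0 lower, with a median of 1.66, and in UK against TrogGW all 15 were higher, with a median of 2.45. In these 3 comparisons the number lower was also 0 at an unadjusted edgeR p under 0.05 and by DESeq2 and limma, while without UK replicate 5, ACAT2 was lower in UK than in FB. With library totals alone those 18 genes split 15 to 1 against Trog and 17 to 0 against TrogGW, and 13 to 0 against FB.

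The 3 enzymes did not change by the same factor. The ratio of 2 counts within a library does not depend on scaling, so the log2 ratio of TM7SF2 to DHCR7 was compared between groups by exact two-sided permutation tests. Only its change between groups is read, since the enzymes differ in length. In FB the log2 ratio was 0.81, 0.47, 0.58, 0.51 and 0.48, and in TGFb it was 1.58, 1.60, 1.59, 1.71 and 1.73. In Trog it was 0.26, 0.83, 0.81, 0.44 and 0.71, in TrogGW 0.52, 0.17, 0.42, 0.73 and 0.31, and in UK 1.60, 1.43, 1.47, 1.45 and 2.62. The libraries thus lay in 2 ranges, TGFb and UK high and the other 3 groups low, with no overlap between the ranges.

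The log2 ratio of TM7SF2 to DHCR7 was higher in TGFb than in FB by 1.07 (95% interval 0.91 to 1.23, exact permutation p = 0.00794, adjusted over 20 ratio tests 0.0198). This p is the smallest that 5 libraries against 5 can give. The ratio was lower than in TGFb by 1.03 in Trog, a difference of -1.03 (95% interval -1.32 to -0.78), and by 1.21 in TrogGW, a difference of -1.21 (-1.43 to -0.98), both with the same exact p. It was higher in UK than in Trog by 1.11, than in TrogGW by 1.29 and than in FB by 1.15, again with the smallest exact p. These 3 differences were 0.88, 1.06 and 0.92 without UK replicate 5 (adjusted exact p = 0.0198 for each). TM7SF2 therefore changed by a larger factor than DHCR7 in these 6 comparisons. For Trog against FB the difference was 0.04 (95% interval -0.29 to 0.33, exact permutation adjusted p = 0.882). For TrogGW against FB it was -0.14 (-0.40 to 0.13), and for TrogGW against Trog -0.18 (-0.53 to 0.17), with adjusted exact p of 0.354 and 0.363. For UK against TGFb it was 0.07 (-0.26 to 0.53, adjusted exact p = 0.976), and -0.15 without UK replicate 5 (adjusted exact p = 0.0722). In these 4 comparisons a difference in response between TM7SF2 and DHCR7 was not resolved within those intervals.

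**Figure D3:**
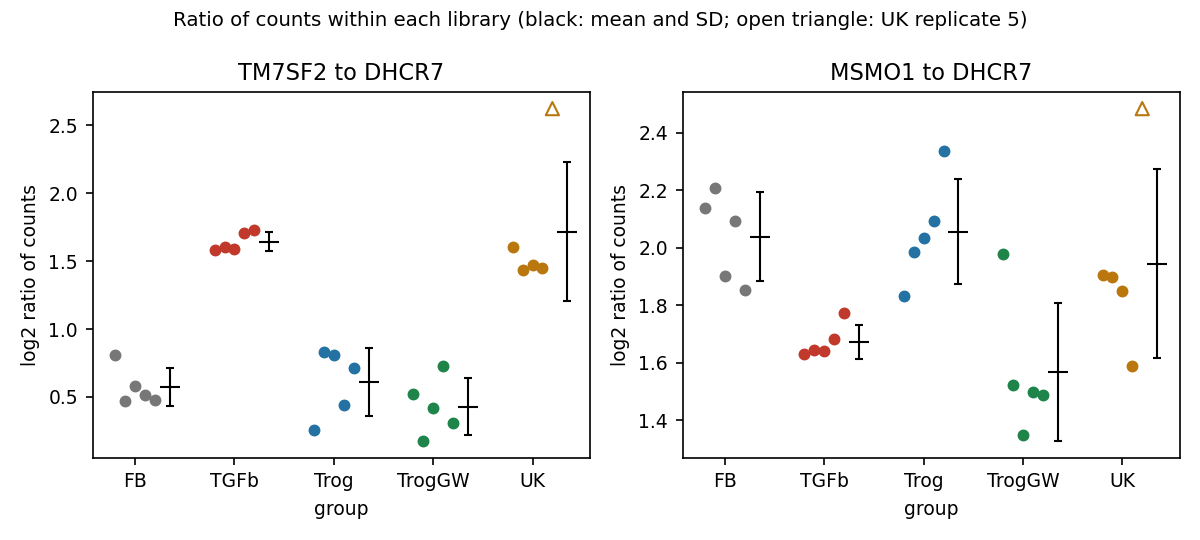
The log2 ratio of TM7SF2 to DHCR7 counts (left) and of MSMO1 to DHCR7 counts (right) in each library by group. Points are libraries, black bars are the mean and SD of 5, the open triangle is UK replicate 5, and the vertical axes differ and do not start at 0. On the left TGFb and UK lie at 1.43 and above and the other groups at 0.83 and below. On the right the groups lie closer together.

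The log2 ratio of MSMO1 to DHCR7 moved over a narrower range, with means of 2.04 ± 0.15 in FB, 1.67 ± 0.06 in TGFb, 2.06 ± 0.18 in Trog, 1.57 ± 0.24 in TrogGW and 1.95 ± 0.33 in UK (SD, n = 5). It was lower in TGFb than in FB, with a difference of -0.37 (95% interval -0.53 to -0.18, exact permutation adjusted p = 0.0198), and no libraries overlapped. It was higher in Trog than in TGFb by 0.38 (0.21 to 0.58, adjusted exact p = 0.0198), also with no overlap. MSMO1 therefore rose by a smaller factor than DHCR7 in TGFb against FB and fell by a smaller factor in Trog against TGFb. With GW9662 added the ratio was lower than in Trog, with a difference of -0.49 (-0.79 to -0.18, adjusted exact p = 0.0353), and lower than in FB by a difference of -0.47 (-0.74 to -0.15, adjusted exact p = 0.0476). TrogGW replicate 1, at 1.98, overlapped the Trog and FB libraries, and the other 4 TrogGW libraries, at 1.35 to 1.52, did not. Both of these results were lost when single libraries were left out: the adjusted exact p reached 0.0705 against Trog without TrogGW replicate 3, and 0.0794 against FB without the same library. The remaining 6 differences for MSMO1 to DHCR7 did not pass, with 0.27 for UK against TGFb (-0.01 to 0.56) and 0.38 for UK against TrogGW (-0.02 to 0.77) among them. These were 0.14 and 0.24 without UK replicate 5, and did not pass.

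The genes whose pattern over the 5 groups came nearest to each enzyme were found by the root mean square (RMS) difference between centred log2 mean profiles, with 0.5 CPM added, over 10698 genes. This is a description over 5 group means. Profiles were not scaled to an equal range, so the difference also depends on the size of the changes. Among the 5 nearest to DHCR7 were HMGCS1, at an RMS of 0.193, MSMO1 at 0.200, MVD at 0.236 and P4HA2 at 0.238. HMGCS1, MSMO1 and MVD are enzymes of cholesterol synthesis, MVD being the mevalonate diphosphate decarboxylase, and P4HA2 is a subunit of the hydroxylase that modifies collagen. MVD and P4HA2 were not among the 5 nearest to DHCR7 without UK replicate 5. Among the 5 nearest to MSMO1 were CALD1 at 0.129, SEMA3B at 0.147, CASQ1 at 0.160 and EXOC6 at 0.174, and DHCR7 ranked 9. CALD1 encodes caldesmon, an actin-binding protein, and CASQ1 a calcium store protein of muscle. Neither CALD1 nor CASQ1 was among the 5 nearest to MSMO1 without UK replicate 5. CALD1 was at 6463 ± 2621 CPM in UK (SD, n = 5) and at 7614 ± 581 without that library (n = 4).

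TM7SF2, whose profile spanned 4.84 on the log2 scale against 3.61 for DHCR7 and 3.75 for MSMO1, had other neighbours by RMS. Nearest were IRAG1 at an RMS of 0.274, FBLN5 at 0.321, IGF1 at 0.409, NEGR1 at 0.439 and COL21A1 at 0.445, none of them in the sterol list. FBLN5 encodes fibulin-5 of elastic fibres, IGF1 a growth factor and COL21A1 a collagen chain. DHCR7 came 17th, at 0.580, and MSMO1 24th, at 0.611. FBLN5, at 265 ± 13.8 CPM in FB and 1093 ± 71.2 in TGFb, was well measured in every group, while IGF1 was listed at 0 in all TrogGW libraries and IRAG1 was at 0.264 ± 0.0979 CPM in Trog (SD, n = 5). NEGR1 was at 0.459 ± 0.103 CPM in Trog and 0.280 ± 0.187 in TrogGW (SD, n = 5). For IGF1, IRAG1 and NEGR1 the added 0.5 CPM sets much of the profile. Without UK replicate 5, 3 of the 5 nearest genes of DHCR7, 3 of TM7SF2 and 2 of MSMO1 were again among the nearest 5. Of the genes nearest to TM7SF2, NEGR1 and COL21A1 were not.

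**Figure D4:**
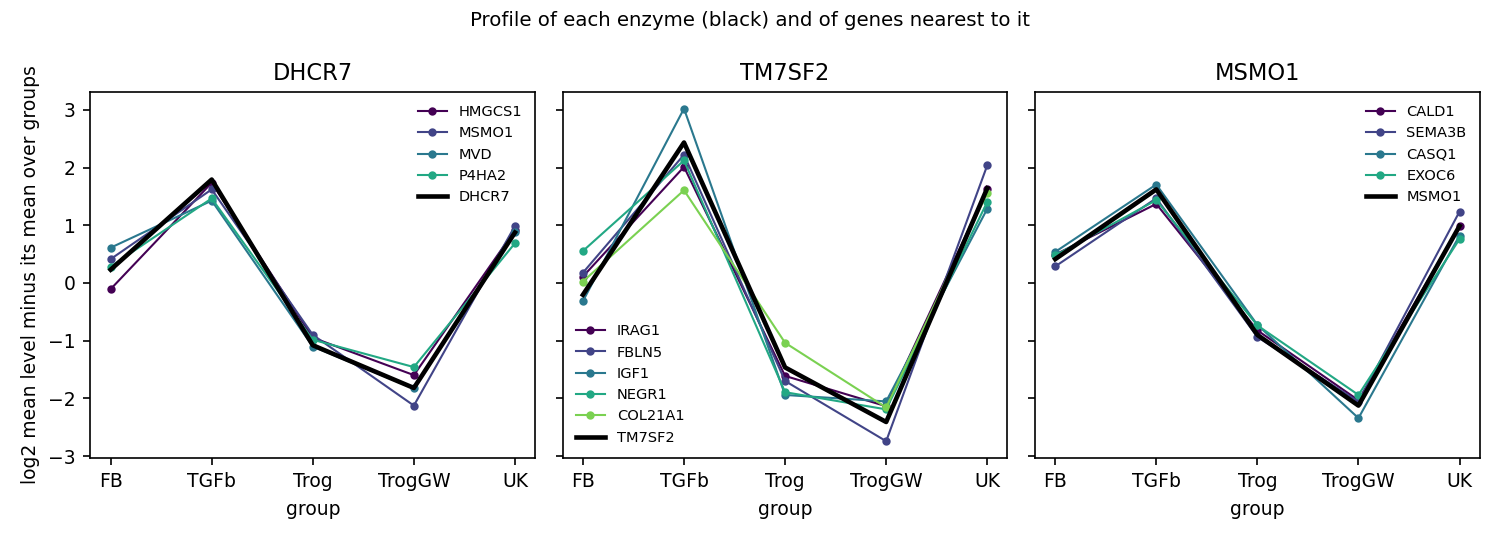
Centred log2 mean level (log2 of the mean CPM plus 0.5, minus its mean over the 5 groups) of each enzyme in black and of its nearest genes, 4 or 5 for each enzyme, in colour, by group. The lines join groups for reading only and do not mean a time course. TM7SF2 spans the widest range of the 3 enzymes, from TGFb at the top to TrogGW at the bottom.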

How the data were processed

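Polyadenylated RNA of 25 samples was made into stranded libraries from 200 ng of total RNA, per the labels' protocols. Salmon 1.5.2, STAR 2.7.9a, featureCounts, Subread 2.0.1 and fastp 0.23.1 are listed in the submitters' processing notes without roles. Neither the genome build nor the annotation or strandedness of counting is given in the sources used here. For each sample the authors deposited a table of raw integer counts by gene symbol. Groups came from the labels.

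All 25 libraries were fitted together in R 4.3.3 with edgeR 4.0.16 (TMM scaling, filterByExpr with a minimum count of 10 and total of 15, quasi-likelihood F test, 1 mean per group, no replicate block) for 10 comparisons, adjusted by the Benjamini-Hochberg method over 10699 genes. SE is the size of the log2 change divided by the root of the F statistic. Log2 ratios of counts used a pseudocount of 0.5 and exact two-sided permutation tests (252 splits), with intervals by inverting the test. Code was tested on simulated data. Alternatives were DESeq2 1.42.0, limma 3.58.1 (voom), other scalings and filters, fits of 2 groups, a replicate block and each library left out.

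The sterol list held 46 genes, of which 38 were in the files and 37 passed the filter. IDI1, FDPS, LBR, NSDHL, EBP, APOE and CH25H were not analysed here. Named are the 3 enzymes, up to 4 list genes per role and comparison with the lowest p, the 5 nearest genes and the markers. Outside that rule lay SREBF2 and SCAP in TGFb against FB, SCAP in Trog and TrogGW against TGFb and ACAT2 in UK against FB. So did SC5D in TrogGW against FB and in Trog and TrogGW against TGFb. These were named after their values were seen. The 3 enzymes and the lists were chosen with earlier results of these data known. The median correlation of deviations was -0.022 for 50 same-numbered pairs of samples and -0.004 for 200 pairs with different numbers. This cannot settle whether replicate numbers pair samples. No libraries were duplicates (smallest chi-square per degree of freedom 3.29). A few genes of the list and of the nearest genes are counted but not reported here. The RefSeq table served only for names and neighbours.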

Additional observations from a re-analysis of the deposited data

Results flagged for a closer look

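In 30 sets of 5 libraries (the level of each enzyme, the ratios of TM7SF2 and of MSMO1 to DHCR7 and the library total, in each group), 5 had a library far from the others by Dixon's criterion, which chance meets in about 1 of 20 sets. UK replicate 5, the library that stood apart over all genes, gave 2 of them: TM7SF2 at 357 CPM, against 165 to 204 in the other UK libraries, and a log2 ratio of TM7SF2 to DHCR7 of 2.62, against 1.43 to 1.60. DHCR7 was at 12.8 CPM in Trog replicate 5, against 16.9 to 18.1 in the others. MSMO1 was at 437 CPM in TGFb replicate 1, against 370 to 389. The log2 ratio of MSMO1 to DHCR7 was 1.98 in TrogGW replicate 1, against 1.35 to 1.52.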

How the results depend on the processing

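The 30 differences of the 3 enzymes kept their direction and stayed past the threshold under all 33 alternatives run for each (990 values, highest adjusted p 0.0118 over edgeR, DESeq2 and limma). Their sizes were less stable. Over the 8 alternatives other than leaving out a library, DHCR7 changed by -3.72 to -2.83 in TrogGW against TGFb on the log2 scale. TM7SF2 changed by -4.93 to -4.04 there and MSMO1 by -3.81 to -2.92. In Trog against TGFb the ranges were -2.92 to -2.22, -3.94 to -3.24 and -2.54 to -1.84 in the same order of enzymes. The total number of sterol genes called, both directions together, stayed within 1.5 times in every alternative run, but the directions did not. With library totals alone, of 37 sterol genes, 15 were higher and 8 lower in TGFb against FB, in place of 22 and 1; 14 and 16 in Trog against TGFb, in place of 9 and 23; 14 and 18 in TrogGW against TGFb, in place of 8 and 25; and 16 and 12 in UK against TGFb, in place of 10 and 14. Library totals alone moved the median of all genes by between -0.62 (UK against TrogGW) and 0.85 (TrogGW against TGFb) on the log2 scale. With the replicate block, DHCR7 rose by 1.57 in TGFb against FB and TM7SF2 changed by -0.82 in UK against TGFb, and no call on the 3 enzymes changed; the paired ratio test cannot go below an exact p of 0.0625 with 5 pairs and was not run. Leaving out each library moved the MSMO1 to DHCR7 differences as follows. TrogGW against FB ranged from -0.57 to -0.42 and was lost without FB replicate 1, 2 or 4 or TrogGW replicate 2, 3, 4 or 5. TrogGW against Trog ranged from -0.59 to -0.42 and was lost without TrogGW replicate 2, 3, 4 or 5. TrogGW against TGFb ranged from -0.21 to -0.052 and passed without TrogGW replicate 1. UK against TrogGW ranged from 0.24 to 0.48 and passed without TrogGW replicate 1, and UK against TGFb ranged from 0.14 to 0.36 and passed without UK replicate 4. Fewer libraries entered these fits; other causes were not tested. Over all genes, 4089 were called in TGFb against FB, 7087 in a fit of those 2 groups only and 7124 without UK replicate 5. In TrogGW against Trog the counts were 4620, 7312 and 7735, and in UK against TGFb 5408 and 3210 in a fit of those groups only. With a library left out, the count in UK against TGFb reached 7657. In UK against FB, Trog and TrogGW it reached 8396, 8111 and 8796, in place of 6037, 6534 and 7277. The median SE for the 3 enzymes was 0.117, and 0.0910 without UK replicate 5. The TM7SF2 to LBR ratio and the promoter motif search were not run.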
